A study of Mus musculus with 12 samples.

Results

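The 12 lung tumors of the series were ranked by a proliferation index, and the 4 tumors with the highest index, called fast-cycling here, were compared with the 4 with the lowest, called slow-cycling. The index is the mean of the deposited log2 normalized counts of *Mki67*, *Top2a*, *Ccnb1*, *Cdk1* and *Birc5*, so the 8 tumors were chosen by measured values of RNA, not by a label, and no cycle time was measured. The 4 tumors between, called intermediate, are shown and not compared. Since the ranking and every gene compared come from the same libraries, the fast and slow tumors are described by their levels and by whether they overlap, with no test. Tests are given only for the comparisons that the labels define.

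All mice were on a C57BL/6 background and carried a Cre-activated oncogene, p53Fl/Fl and the CCSP-rtTA transgene, in which a club cell promoter drives the doxycycline-dependent activator. KPG1 mice carried Glut1Fl/Fl in addition, while KP mice are labelled as wild type for Glut1 (*Slc2a1*). The study states that its controls were either wild type or heterozygous for the floxed allele. Tumors of all mice were started with 6000 units of one lentivirus, which delivers Cre from the PGK promoter and holds PPARαΔ13, a dominant negative PPARα, behind a doxycycline-responsive promoter. In the groups KP-PPARαΔ13 and KPG1-PPARαΔ13 the food held doxycycline (625 mg/kg) during 15 days, whereas KP and KPG1 mice were fed a regular diet, so that KP and KPG1 tumors carry the vector without its induction and the diet cannot be told apart from PPARαΔ13. Tumors were dissected 26 weeks after initiation and depleted of CD45-positive cells, and polyadenylated RNA was sequenced from 3 tumors of each of the 4 groups. Read as mouse numbers, the sample descriptions place the 12 tumors in 9 mice, with KP 1 and KP 2, KPG1 1 and KPG1 2, and KPG1-PPARαΔ13 1 and KPG1-PPARαΔ13 3 each from one mouse.

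The 5 genes of the index act from S phase to the end of mitosis. *Mki67* encodes Ki-67, which coats mitotic chromosomes and is absent from resting cells. *Top2a* encodes the topoisomerase that untangles replicated DNA, *Ccnb1* encodes cyclin B1 and *Cdk1* the kinase that cyclin B1 activates at entry into mitosis. *Birc5* encodes survivin, a subunit of the chromosomal passenger complex. Genes of G2 and mitosis are held down in resting cells by the DREAM complex, which binds the cell cycle genes homology region (CHR), whereas many genes of S phase are driven by E2F factors. The RNA of such genes is widely used as a measure of how many cells of a sample are in the cycle. In these bulk samples, fewer cells of a type and less RNA per cell cannot be told apart.

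The promoters of the index genes and of *Ncapg*, a condensin subunit gene described below, are shown because they carry the short motifs named for this class of genes. They come from RefSeq (GRCm38.p6, the assembly of mm10), run from 250 bases before to 50 bases after the annotated start, and lie at chr7:135716330-135716629 (- strand) for *Mki67*, chr11:99024140-99024439 (- strand) for *Top2a*, chr13:100786437-100786736 (- strand) for *Ccnb1*, chr10:69352863-69353162 (- strand) for *Cdk1*, chr11:117848987-117849286 (+ strand) for *Birc5* and chr5:45669675-45669974 (+ strand) for *Ncapg*. Capitals mark the letters of the CHR (TTTGAA or TTTAAA), of the CCAAT box (CCAAT) and of an E2F site (TTTCCCGC, TTTGGCGC or TTTCGCGC), each searched on both strands.
Mki67: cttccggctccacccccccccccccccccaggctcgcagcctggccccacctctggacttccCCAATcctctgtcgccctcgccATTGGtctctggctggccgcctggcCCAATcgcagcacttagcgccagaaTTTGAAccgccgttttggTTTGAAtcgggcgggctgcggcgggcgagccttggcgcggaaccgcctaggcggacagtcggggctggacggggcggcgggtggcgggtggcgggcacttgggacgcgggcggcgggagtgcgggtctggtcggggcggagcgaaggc
Top2a: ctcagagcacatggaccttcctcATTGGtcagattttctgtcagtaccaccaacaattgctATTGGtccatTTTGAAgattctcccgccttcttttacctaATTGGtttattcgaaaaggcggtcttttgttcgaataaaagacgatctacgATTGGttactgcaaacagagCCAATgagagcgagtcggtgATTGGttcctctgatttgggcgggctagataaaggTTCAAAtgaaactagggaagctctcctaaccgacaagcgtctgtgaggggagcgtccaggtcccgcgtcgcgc
Ccnb1: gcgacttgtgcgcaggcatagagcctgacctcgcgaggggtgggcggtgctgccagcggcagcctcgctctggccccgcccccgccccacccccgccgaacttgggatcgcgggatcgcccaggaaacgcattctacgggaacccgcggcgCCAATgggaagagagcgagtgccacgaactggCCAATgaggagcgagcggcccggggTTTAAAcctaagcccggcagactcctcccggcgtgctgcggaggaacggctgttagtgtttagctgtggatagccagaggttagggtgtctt
Cdk1: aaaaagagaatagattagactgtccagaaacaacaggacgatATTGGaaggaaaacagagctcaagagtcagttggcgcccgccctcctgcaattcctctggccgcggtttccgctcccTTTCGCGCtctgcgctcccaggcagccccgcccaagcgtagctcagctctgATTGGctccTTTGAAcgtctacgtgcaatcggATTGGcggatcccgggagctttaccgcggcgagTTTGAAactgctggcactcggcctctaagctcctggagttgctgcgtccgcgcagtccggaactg
Birc5: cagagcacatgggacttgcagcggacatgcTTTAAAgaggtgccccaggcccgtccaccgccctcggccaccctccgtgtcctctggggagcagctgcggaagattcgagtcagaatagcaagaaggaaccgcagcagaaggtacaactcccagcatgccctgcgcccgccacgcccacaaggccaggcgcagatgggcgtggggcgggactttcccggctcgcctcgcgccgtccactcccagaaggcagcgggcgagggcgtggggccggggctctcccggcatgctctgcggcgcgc
Ncapg: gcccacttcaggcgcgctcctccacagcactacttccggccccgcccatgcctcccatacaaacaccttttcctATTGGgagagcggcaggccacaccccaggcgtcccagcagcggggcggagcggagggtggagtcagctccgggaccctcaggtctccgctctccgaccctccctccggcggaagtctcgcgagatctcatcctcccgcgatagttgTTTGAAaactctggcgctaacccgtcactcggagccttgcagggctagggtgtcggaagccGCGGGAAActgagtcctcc

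The CHR letters were found in 5 of the 5 index promoters and the CCAAT box in 4, *Birc5* being the exception. The *Mki67* promoter holds TTTGAA at positions -116 and -98 from the start, after 3 CCAAT boxes between -188 and -141. The *Ccnb1* promoter holds TTTAAA at -42 behind CCAAT boxes at -99 and -67, and the *Cdk1* promoter holds TTTGAA at -71 and -15 and the only E2F letters among the 5, at -131. Among the 11132 tested genes with a promoter in the table, 22.8% held the CHR letters, 42.4% the CCAAT box, 3.73% the E2F letters and 10.7% both CHR and CCAAT. Of the 60 genes with a promoter among 74 genes of mitosis and G2/M, 70.0% held the CHR, 68.3% the CCAAT box, 55.0% both and 3.33% the E2F letters. The 51 promoters of genes of DNA replication and S phase held the CHR letters less often than those of mitosis genes, in 31.4%, and the E2F letters in 37.3%. The 21 promoters of condensin and chromatin genes held both kinds, the CHR in 71.4% and E2F in 33.3%. In the 22 promoters of DNA repair and checkpoint genes the CHR was no more frequent than among all tested genes, at 22.7%. Both CHR and CCAAT were in 9.09% of them, and the E2F letters in 27.3%. A match is a description of the letters in this window, and its use in these tumors was not measured.

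The index ranged from 5.67 in KPG1 1 to 3.95 in KP-PPARαΔ13 3. The fast tumors were KPG1 1 (5.67), KPG1-PPARαΔ13 2 (5.55), KP-PPARαΔ13 2 (5.54) and KP-PPARαΔ13 1 (5.40), and the slow tumors were KPG1-PPARαΔ13 3 (4.97), KPG1 2 (4.92), KP 1 (4.41) and KP-PPARαΔ13 3 (3.95). Each class thus drew from several groups. The fast class held 2 KP-PPARαΔ13 tumors, 1 KPG1 tumor and 1 KPG1-PPARαΔ13 tumor, and no KP tumor, while the slow class held 1 tumor of each group. The fast tumors came from 3 males and 1 female, the slow ones from 2 and 2, and both classes held 2 tumors with Glut1Fl/Fl and 2 with wild-type Glut1. Doxycycline had been given to 3 of the 4 fast and 2 of the 4 slow tumors. KPG1 1 and KPG1 2, in opposite classes, grew in the same mouse, and KP-PPARαΔ13 supplied 2 fast tumors and the slowest one.

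The borders of the classes were narrow. KP-PPARαΔ13 1, the last fast tumor, lay 0.0030 above KP 3, the first intermediate one, and KPG1-PPARαΔ13 3, the first slow tumor, lay 0.016 below KPG1 3. The mean index was 5.54 ± 0.11 (SD, n = 4) in fast tumors, 5.16 in the intermediate ones and 4.56 ± 0.48 (SD, n = 4) in slow tumors, a difference of 0.98 on the log2 scale. Most of the width lay at the bottom of the ranking, where KP 1 and KP-PPARαΔ13 3 were 0.51 or more below the next tumor, KPG1 2. When 1 index gene was left out or the index was taken as a median, as a mean z-score or from counts scaled in other ways, 3 or 4 of the 4 tumors of each class stayed in it, and KP 1, KP-PPARαΔ13 3, KPG1 1, KPG1-PPARαΔ13 2 and KP-PPARαΔ13 2 kept their class each time.

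**Figure D1:**
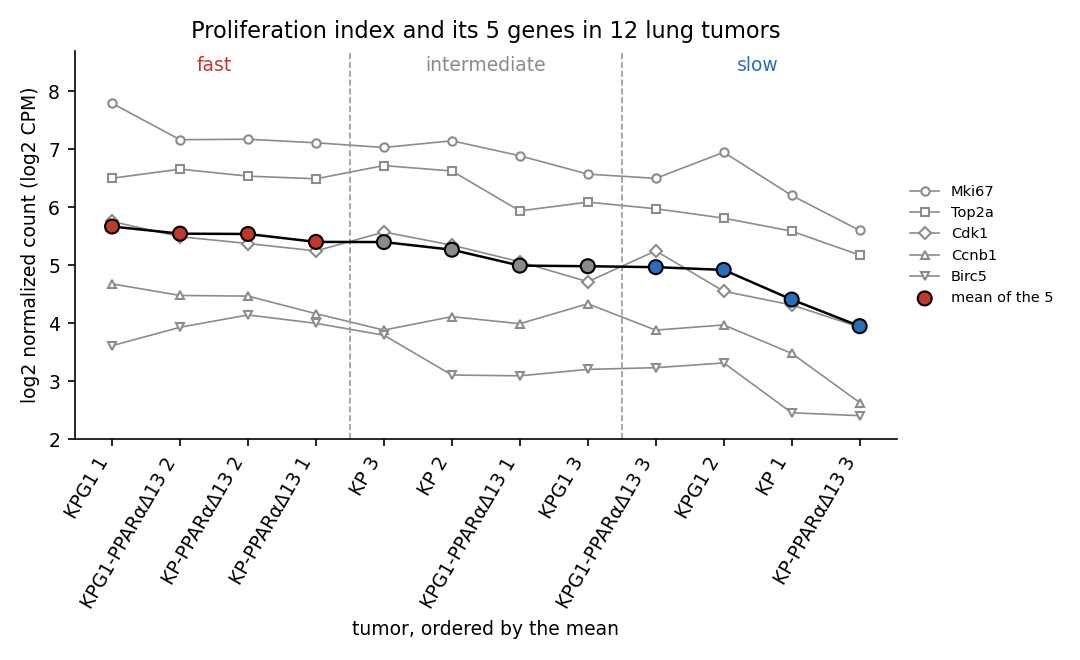
Log2 normalized count (log2 CPM) of the 5 index genes (open symbols) and their mean (filled circles; red fast, gray intermediate, blue slow) in each of the 12 tumors, ordered by the mean. The mean falls by small steps from 5.67 to 4.92 and then drops to 4.41 and 3.95 in KP 1 and KP-PPARαΔ13 3.

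On the linear scale of CPM (the count over the library total, per 1e6 counts, after TMM scaling), *Mki67* was 219, 143, 142 and 138 in the fast tumors and 91.8, 124, 74.2 and 48.6 in the slow ones, in the order of the index. *Ccnb1* was 25.2, 22.3, 21.8 and 17.9 against 15.0, 15.7, 11.2 and 6.20, and *Birc5* was 12.04, 15.2, 17.4 and 15.9 against 9.54, 9.98, 5.51 and 5.29. *Top2a* was 89.2, 101, 91.3 and 89.6 against 63.9, 56.4, 48.4 and 36.2. These 4 genes did not overlap between the classes. *Cdk1* did: its level was 53.2, 44.9, 40.8 and 37.8 CPM in fast tumors and 38.6, 23.5, 20.03 and 15.3 in slow ones, with KPG1-PPARαΔ13 3 above KP-PPARαΔ13 1. The mean differences of the 5 genes were 0.91 to 1.07 on the log2 scale, and the genes followed each other over the 12 tumors, with Pearson r of 0.77 to 0.92 over the 10 pairs of genes. These values chose the tumors and are no finding.

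Across the 16522 other genes tested, a gene was counted as separating the classes where their tumors did not overlap and the mean log2 values differed by at least 1. There were 93 such genes higher in fast tumors, 0.563% of those tested, and 43 lower, 0.26%. Overlap alone was absent for 314 genes on the higher side (1.90%) and 134 on the lower (0.811%). The median difference of all genes was 0.0029, and 90% of genes lay between -0.84 and 0.81. Most separating genes had low counts, and 29 higher and 8 lower genes had a mean log2 value of at least 3. Fast tumors had totals of 25263794 to 29735265 counts and slow ones of 29968020 to 32654223, without overlap. With the counts of all tumors thinned to the lowest total and the same 8 tumors, 83 genes were higher and 51 lower, of which 71 and 38 were among those counted without thinning.

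Genes of cell division made up 30 of the 93 genes higher in fast tumors. Of 194 tested genes in lists of mitosis, DNA replication, condensin and chromatin, and DNA repair, with the index genes left out, these 30 made up 15.5%, against 0.563% of all genes, and none separated the classes on the lower side. Without the limit on size 83 did not overlap, all on the higher side, and 186 of the 194 were higher in the mean of the fast tumors. The number of genes of the lists that separated the classes depended on the slowest tumor, KP-PPARαΔ13 3. With KP 1 alone left out, 39 genes of the lists separated the classes, among 137 higher over all genes tested. Without KP 1 and KP-PPARαΔ13 3, the 4 highest of the other 10 tumors were compared with the 4 lowest. In that comparison the fast class was unchanged, with 2 of 4 tumors Glut1Fl/Fl. The slow class became KPG1-PPARαΔ13 1, KPG1 3, KPG1-PPARαΔ13 3 and KPG1 2, all Glut1Fl/Fl, so genotype also differed between the classes. There, 2 genes of the lists separated the classes, among 70 higher genes over all genes tested. Without KP-PPARαΔ13 3 alone, 7 genes of the lists did so, among 96 higher. Without KP-PPARαΔ13 3, alone or together with KP 1, the count over all genes thus changed less, from 93, than that of the lists, from 30.

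Mitosis and G2/M genes showed the largest median difference of the cell division lists, 0.91, with 71 of 74 genes higher in fast tumors, 41 not overlapping and 20 separating the classes. *Cdc25c*, the phosphatase that activates Cdk1, was measured at 5.08, 4.99, 7.84 and 8.26 CPM in the fast tumors and at 3.48, 4.37, 2.33 and 0.84 in the slow ones, a difference of 1.46. *Bub1*, a kinase of the spindle checkpoint, was at 25.9, 37.3, 37.7 and 17.1 CPM against 15.9, 12.6, 13.1 and 8.01, a difference of 1.25. *Kif2c*, a kinesin that takes microtubule ends apart at centromeres, was at 16.8, 18.7, 21.8 and 15.7 CPM against 12.3, 9.22, 6.95 and 5.39, a difference of 1.19. In each of these genes KP-PPARαΔ13 3 was the lowest of the 12 tumors. *Ska1*, which couples kinetochores to microtubules, differed by 1.38 at a lower level, with 2.02 to 3.53 CPM in fast and 0.67 to 1.55 in slow tumors.

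Further regulators of mitosis, named here after their values were seen, followed the same order. Cyclin A2 (*Ccna2*) was at 30.2 to 54.2 CPM in fast and 13.6 to 25.9 in slow tumors, and Aurora B (*Aurkb*), the kinase partner of survivin, was at 9.68 to 15.3 against 3.75 to 9.02. *Foxm1*, which encodes a transcription factor of G2 genes, was at 27.2 to 42.2 against 17.8 to 22.5. The mitotic kinase gene *Plk1* overlapped, since KPG1 2 with 14.04 CPM lay within the fast tumors at 12.96 to 14.2. The 3 genes of the list that were lower in the mean of the fast tumors were *Cdc25b* (-0.50), *Pttg1* (-0.23) and *Tubb4b* (-0.03), and all 3 overlapped. *Cdc25b*, another phosphatase of cyclin-dependent kinases, was at 49.5 to 106 CPM in fast and 77.8 to 141 in slow tumors.

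Genes of DNA replication and S phase differed less. Their median difference was 0.55, with 61 of 64 genes higher, 15 not overlapping and 2 separating the classes, 3.13% of the list against 27.0% of the mitosis list. *Ticrr*, needed to start replication forks, was at 9.08, 9.54, 8.75 and 5.83 CPM in the fast tumors and at 5.08, 4.85, 3.32 and 2.31 in the slow ones, a difference of 1.16. *Cdc7*, the kinase that triggers firing of origins, was at 14.7, 11.6, 12.5 and 13.1 against 9.11, 5.37, 8.63 and 3.99, a difference of 1.03. The highest *Cdc7* level of the series, 19.8 CPM, was in the intermediate tumor KP 2. The 6 genes of the MCM2-7 helicase, which unwinds DNA at the fork, were all higher in the mean, from 0.41 for *Mcm4* to 0.84 for *Mcm7*, and all overlapped. *Rrm2*, the regulated subunit of ribonucleotide reductase, had the largest mean difference of the list, 1.33, but overlapped, with KPG1 1 at 21.9 CPM and KP 1 at 22.4.

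The order of the tumors also differed between the phases of the cycle. KPG1 1, first by the index, had a mean log2 value of 4.51 over the mitosis genes, second among the fast tumors, but its mean over the S phase genes, 4.11, was below all 4 intermediate tumors. KP 2, an intermediate tumor with a mitosis mean of 3.98, had the highest S phase mean of the series, 4.78. *Ccne1*, whose cyclin E1 drives cells into S phase, reached 32.7 CPM in KP 2 against 5.20 in KPG1 1 and had an r of 0.42 with the index, while *Kif2c* had 0.95. Both list means still did not overlap between the classes (mitosis 4.398 to 4.55 in fast and 3.21 to 3.98 in slow tumors, S phase 4.11 to 4.66 and 3.63 to 4.05).

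Among condensin and chromatin genes, 25 of 27 were higher in fast tumors, with a median of 0.58 and 11 not overlapping, and 2 separated the classes. *Ncapg*, whose promoter is shown above, was at 24.2, 22.5, 29.0 and 22.6 CPM in the fast tumors and at 12.7, 12.5, 10.6 and 6.97 in the slow ones, a difference of 1.26. Its lowest fast value was more than 1.5 times the highest slow value. Condensin subunits were not alike: *Ncapg2*, *Ncaph*, *Ncapd2* and *Smc2* differed by 0.74 to 0.97 without overlap, whereas *Smc4*, *Ncapd3* and *Ncaph2* differed by 0.26, 0.18 and -0.36 and overlapped.

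All 29 DNA repair and checkpoint genes were higher in the mean of fast tumors, with a median of 0.78, 16 not overlapping and 6 separating the classes. *Parpbp*, a restrainer of recombination, was at 11.3, 7.59, 8.07 and 8.47 CPM against 5.73, 3.75, 4.72 and 2.18, a difference of 1.201. *Clspn*, which carries the replication checkpoint signal to Chk1, was at 6.80, 13.5, 11.5 and 9.56 against 4.86, 4.54, 5.65 and 4.35, a difference of 1.07. *Pclaf* (listed as 2810417H13Rik), a PCNA partner, and *Rad54b*, a recombination motor, differed by 1.15 and 1.06. Here too the separation was by a small margin in single tumors, with KPG1 1 the lowest fast tumor for *Clspn*, *Pclaf* and *Rad54b*.

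Genes that set the pace of G1 showed no such pattern. Of 26 G1 cyclins, cyclin-dependent kinase (CDK) inhibitors and pocket proteins, 15 were higher in fast tumors, the median difference was 0.05, and none separated the classes or lacked overlap. *Ccnd2*, encoding cyclin D2, had one of the largest mean differences, 1.33, but ranged from 6.76 to 147 CPM in the fast and from 4.27 to 74.9 in the slow tumors. *Ccnd1*, encoding cyclin D1, was at 276 to 529 CPM in fast and 311 to 623 in slow tumors. *Gas1* differed by 1.34 at levels under 0.5 CPM in all tumors. *Cdkn1a*, which encodes the CDK inhibitor p21, was at 65.0 to 107 CPM in fast and 90.3 to 161 in slow tumors, overlapping, and the 17 p53 target genes had a median difference of -0.07 in tumors that all carry p53Fl/Fl.

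Lists of growth and metabolism were shifted by less than the division lists. Of 24 Myc and ribosome biogenesis genes, 22 were higher in fast tumors with a median of 0.32, none without overlap, and *Npm1* (nucleophosmin) was at 305 to 419 CPM in fast and 200.1 to 354 in slow tumors. *Mycl* and *Dkc1*, the genes of this list named by size, differed by 0.88 and 0.53. Of 26 genes of nucleotide and one-carbon synthesis, 21 were higher with a median of 0.27, led by *Psph* (0.71), the last step of serine synthesis, and *Cad* (0.59), the first steps of pyrimidine synthesis. Glycolysis and hypoxia genes had a median of 0.26, with 20 of 27 higher, but only 4 of 27 were higher in KPG1 1 than in KPG1 2 (median -0.41), and the mean of the list was lower in intermediate tumors (6.51) than in slow ones (6.85). *Slc2a3*, the gene of Glut3, was at 131 to 268 CPM in fast tumors and at 106, 33.6, 313 and 24.1 in slow ones, and *Gapdh*, whose many processed pseudogenes make its count uncertain, was at 712 CPM in KP-PPARαΔ13 1 and at 23.5 to 280.4 in the other fast and slow tumors. Genes of fatty acid oxidation and PPARα had a median of -0.09, with *Fabp1* (-1.46), a fatty acid binding protein gene, overlapping. For Myc and nucleotide genes the within-group contrasts were unequal, and the median was 0.66 and 0.60 for KP-PPARαΔ13 1 and 2 against KP-PPARαΔ13 3, but -0.04 and 0.02 for KPG1 1 against KPG1 2 and -0.03 and -0.10 for KPG1-PPARαΔ13 2 against KPG1-PPARαΔ13 3.

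**Figure D2:**
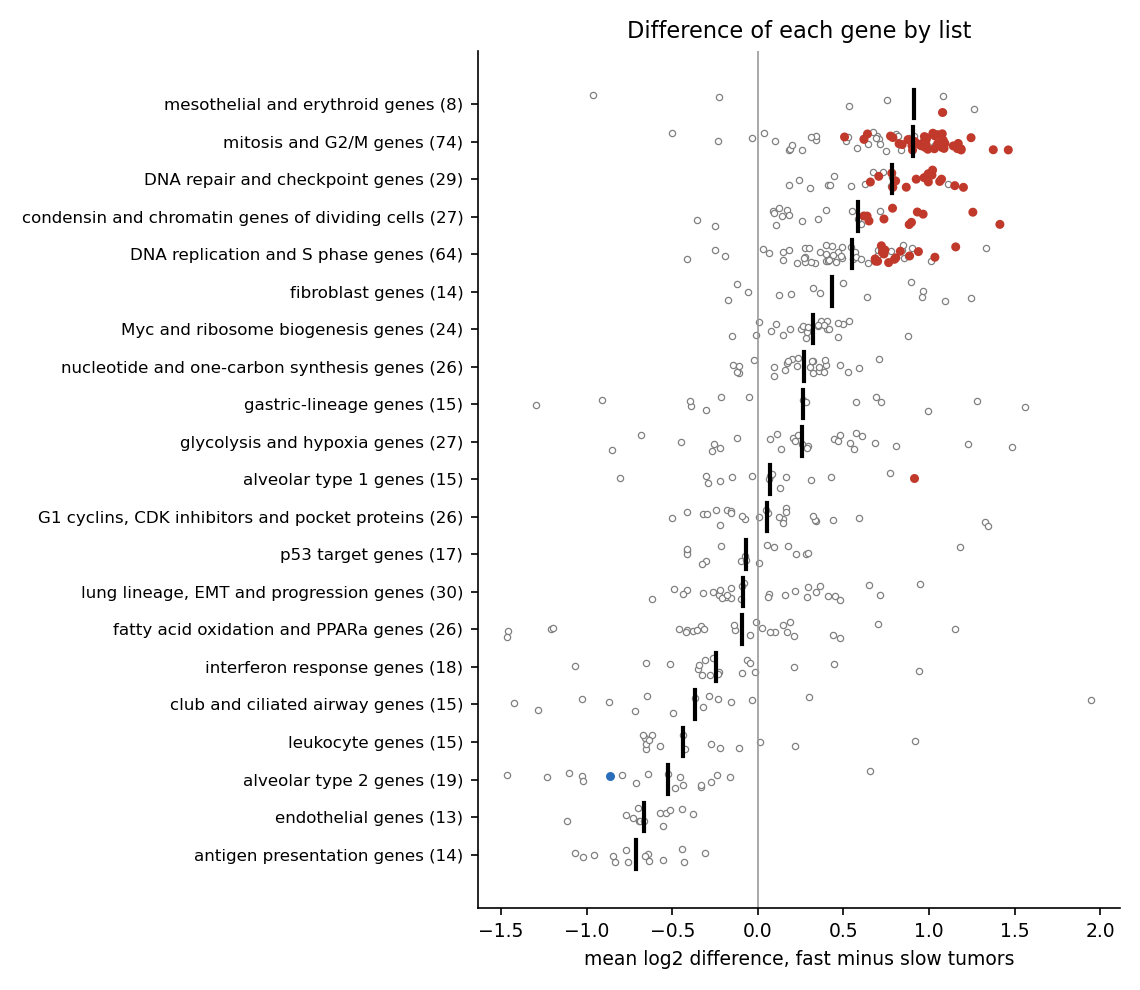
Mean log2 difference, fast minus slow tumors, of each tested gene (points) in 21 lists, with the number of tested genes in parentheses and the median as a black bar. Filled points are genes whose classes do not overlap (red higher, blue lower in fast tumors). They gather in the 4 cell division lists, whose medians run from 0.55 to 0.91.

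Markers of the alveolar type 2 cell, the cell from which such lung adenocarcinomas often arise and whose surfactant genes they keep, tended to be lower in fast tumors. Of 19 genes, 18 were lower, the median was -0.52, and *Sftpb*, encoding surfactant protein B, was the only one without overlap. *Sftpb* was at 11706, 9905, 12444 and 12898 CPM in the fast tumors and at 14121, 29547, 19441 and 27052 in the slow ones. The level was thus higher in every slow tumor than in any fast tumor, although the mean difference, -0.87, was below the size set for counting. *Sftpa1* (-1.23) and *Lyz1* (-1.46) had larger mean differences and overlapped, *Sftpa1* with 942 to 5762 CPM in fast and 4081 to 8358 in slow tumors. The median moved with the ranking, to -0.04 with *Mki67* left out of the index and -0.18 without *Cdk1*, and was -0.81 without KPG1 1. With doxycycline, given to 3 of the 4 fast tumors, its median log2 fold change was -0.69. The mean of the list did not separate the classes, since KPG1 1 had 10.28 and KPG1-PPARαΔ13 3 had 9.63. Within groups the median difference was -1.08 for KP-PPARαΔ13 1 and 2 against KP-PPARαΔ13 3, and -0.10 and -0.15 for the KPG1 and KPG1-PPARαΔ13 pairs. *Nkx2-1*, the lung lineage factor gene, was at 208 to 533 CPM over all 12 tumors, and the alveolar type 1 list had a median of 0.07, with *Akap5* alone free of overlap (0.91) and *Aqp5* at -0.81.

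Other epithelial programs showed no separation. Club and ciliated airway genes had a median of -0.37 with 13 of 15 lower, and *Bpifa1*, a secreted airway protein gene, was at 1.00 CPM in KP-PPARαΔ13 3 and at 2022 in the intermediate tumor KP 2. Gastric-lineage genes, which some tumors of this kind acquire, had a median of 0.26 that turned negative under 14 of 24 alternatives, and *Tff3* was at 137 CPM in KPG1-PPARαΔ13 2 and at 0 in KP-PPARαΔ13 1 and KP-PPARαΔ13 2. Genes of lung lineage, epithelial-mesenchymal transition and progression had a median of -0.09, with *Snai2* (0.95) at or below 1.17 CPM and *Slc4a11* (0.71) both overlapping.

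Markers of other cells moved with the classes to some degree, and their part in the differences above was not tested. All 13 endothelial genes were lower in the mean of the fast tumors, with a median of -0.67, and none was without overlap. Their summed level was 190.4 to 628 CPM in fast and 234 to 1106 in slow tumors, and KPG1 1, the fastest, stood above 3 of the 4 slow tumors in *Pecam1*, with 105 CPM against 53.7, 33.6 and 87.3, while KP-PPARαΔ13 3 had 158. Without KP-PPARαΔ13 3 the median was -0.17. *Sox17* (-1.11) and *Tie1* (-0.77), an endothelial factor and receptor gene, were largest by size. Fibroblast genes had a median of 0.43, with 11 of 14 higher and none without overlap, and a summed level of 209.7 to 694 CPM against 133 to 430.1. KPG1 2 was low in them, with *Col1a2* at 26.1 CPM against 218 in KPG1 1 of the same mouse, and *Dcn* reached 123 CPM in KP-PPARαΔ13 1 with 4.002 to 10.8 in the other fast tumors.

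The depletion step targets CD45, which leukocytes carry. *Ptprc*, the gene of CD45, was at 4.11 to 8.07 CPM in fast tumors and at 3.45, 5.09, 31.5 and 9.85 in slow ones, with KP 1 the highest of the series. The 15 leukocyte genes had a median of -0.43 with 12 lower, led by size by *Marco* (0.92) and *Itgax* (-0.67), and summed to 127 to 262 CPM against 129 to 336. Antigen presentation genes, which tumor cells express as well, were lower in fast tumors in 14 of 14 cases, with the lowest median of all lists, -0.71, and without a gene free of overlap. *H2-Aa* (-1.07), a class II chain, was at 181 to 527 CPM in fast and 346 to 932 in slow tumors, and *Psmb9* (-1.02), of the immunoproteasome, was at 4.29 to 19.04 against 5.20 to 51.3. With the 2 slowest tumors left out, the antigen presentation median was 0.35 and the leukocyte median 0.39, so that both turned. In that setting all slow tumors were Glut1Fl/Fl, and the part of genotype in the turn was not tested. The antigen presentation median also turned, to 0.11, with *Cdk1* left out of the index, and the leukocyte median, to 0.27, with tumors of one mouse averaged. Antigen presentation genes had a median log2 fold change of -0.90 with doxycycline and -0.62 with Glut1Fl/Fl (1 of 14 higher). Leukocyte genes had 0.02 with doxycycline and -0.90 with Glut1Fl/Fl (0 of 15 higher). Interferon response genes had a median of -0.25, which was above 0 in 4 of 24 alternatives (up to 0.27), with *Oas1a* at -1.07 and *Ifit2* at 0.94, both overlapping.

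Among 8 mesothelial and erythroid genes the median was 0.91, and 0.09 with *Mki67* left out of the index. *Alas2*, the heme synthesis enzyme of red cells, separated the classes, at 31.0, 41.2, 51.1 and 70.9 CPM in the fast tumors and 21.2, 17.2, 22.8 and 30.1 in the slow ones. The globin gene *Hbb-bs* was at 238 to 761 against 155 to 257 CPM and overlapped, and 3 of the 4 fast tumors came from mice on doxycycline. The median log2 fold change of this list with doxycycline was 1.15.

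**Figure D3:**
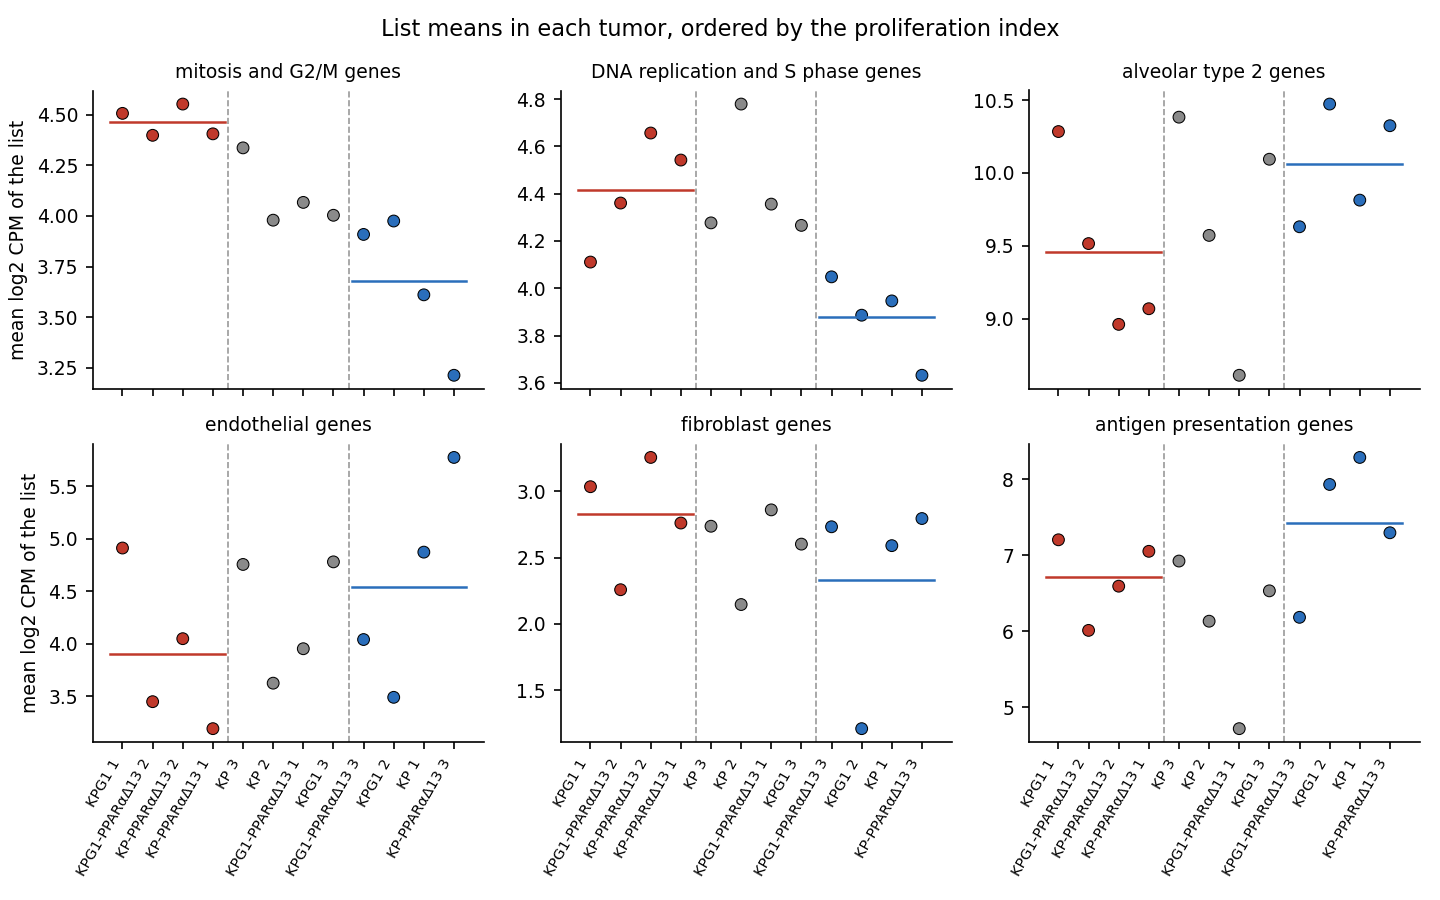
Mean log2 CPM of 6 lists in each tumor, ordered by the index (red fast, gray intermediate, blue slow; lines are class means). The mitosis and S phase means do not overlap between fast and slow tumors, and those of alveolar type 2, endothelial, fibroblast and antigen presentation genes do.

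Outside the lists, several of the separating genes with a mean log2 value of at least 3 are known from cell division. They were named by size of the difference. *Kntc1*, of the kinetochore, was at 16.0, 17.0, 24.2 and 23.0 CPM in the fast tumors and 12.7, 10.7, 8.15 and 4.99 in the slow ones, a difference of 1.22. *Esco2*, which acetylates cohesin in S phase, was at 21.4, 15.8, 18.1 and 16.6 against 7.73, 11.6, 11.8 and 4.99, a difference of 1.09. *Gas2l3*, acting in cytokinesis, and *Fignl1*, acting in recombination, differed by 1.10 and 1.196. *C330027C09Rik*, whose product CIP2A inhibits the phosphatase PP2A, was at 41.9, 29.7, 45.5 and 44.3 against 19.8, 26.5, 15.7 and 16.3, a difference of 1.08. For this gene the fast tumors stood above all other 8 tumors, the highest of which was KPG1 2 with 26.5 CPM.

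Others have no such role that is well known. *Tnfrsf26*, a receptor gene of the tumor necrosis factor family, had the largest difference of these, 1.38, with 30.9, 30.6, 49.1 and 45.7 CPM against 29.8, 17.4, 14.3 and 6.599. *Hnrnpf*, an RNA-binding protein gene, was at 640, 551, 745 and 556 CPM against 285, 370, 390 and 211, a difference of 1.04. *Ccdc18* and *Zfp760* differed by 1.04 and 1.03.

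The 8 genes lower in fast tumors at this level belonged to no list. *Ly6c2*, a surface antigen gene of monocytes and some endothelium, had the largest difference, -2.27, at 24.3, 20.2, 6.39 and 12.9 CPM in the fast and 32.6, 44.9, 158 and 102 in the slow tumors. It has a close paralog, *Ly6c1*, and reads could be split between them. *Slc11a1*, a metal transporter gene of phagocytes, was at 27.0, 12.01, 7.33 and 8.91 against 66.7, 40.6, 89.5 and 48.9, a difference of -2.26, and the intermediate tumors spanned 12.2 to 68.5. *Gnal*, *B4galt5*, *Fbp2*, *Cd82* and *Rtn4rl1* differed by -1.63, -1.496, -1.22, -1.17 and -1.04. *Cd82*, a tetraspanin gene, was at 45.9, 37.9, 27.0 and 30.3 CPM against 47.6, 91.3, 63.9 and 140.4, so that KPG1 1 and KPG1-PPARαΔ13 3 differed by little. *B4galt5*, a galactosyltransferase gene, was at 54.2 CPM in KP-PPARαΔ13 3 and at 6.92 to 8.50 in the other slow tumors. *Rpsa-ps9* (-1.68) is listed as a pseudogene of a ribosomal protein gene and its reads are uncertain.

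**Figure D4:**
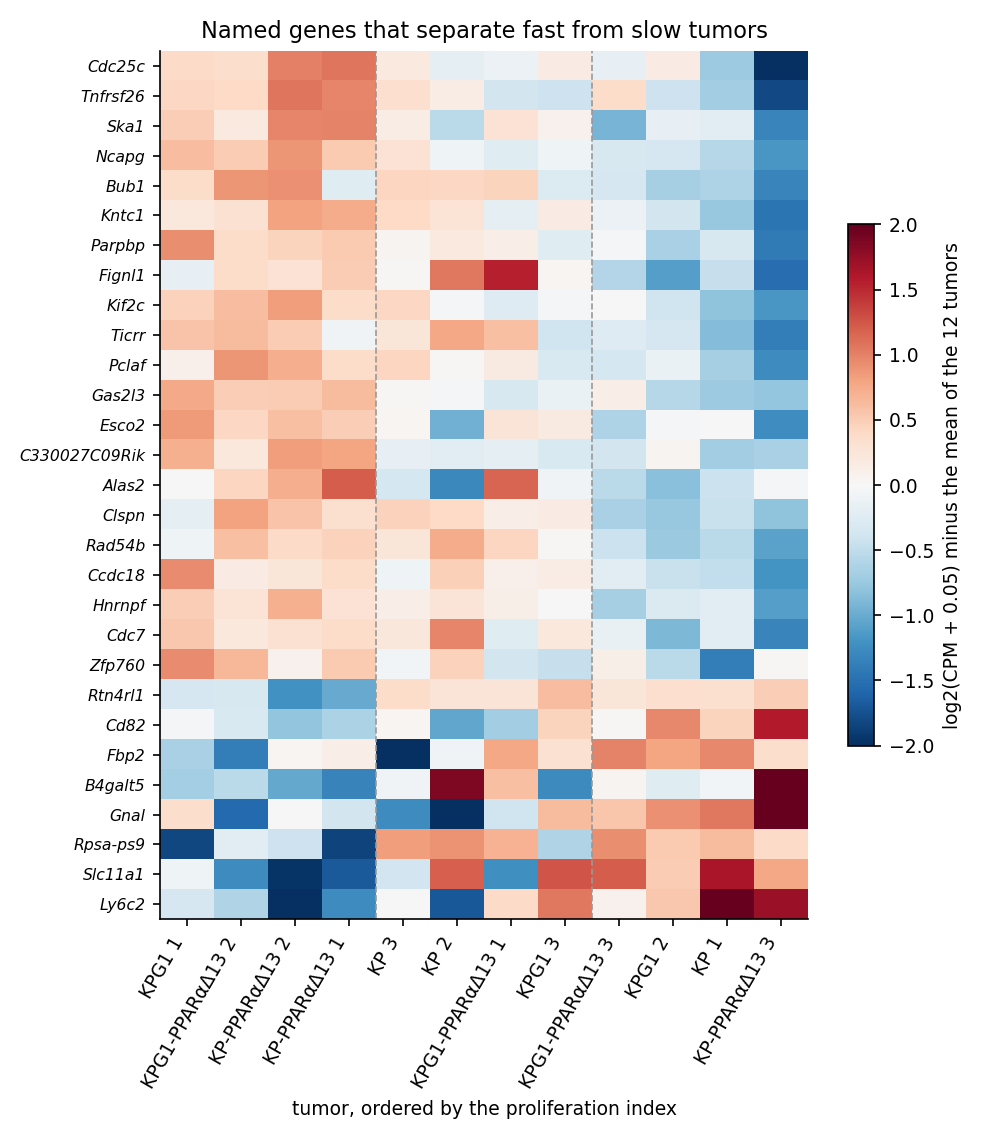
Log2(CPM + 0.05) minus the mean of the 12 tumors for 29 named genes that separate the classes, 21 higher and 8 lower in fast tumors, with the tumors ordered by the index (colors stop at 2 and -2). KP-PPARαΔ13 3 is the darkest blue column for most of the higher genes.

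Over all 12 tumors, the genes outside the lists that followed the index most closely were *Alg8* (r = 0.93), *Kntc1* (0.93), *Tnfrsf26* (0.91), *Yes1* (0.90) and *Anapc15* (0.89), among genes with a mean log2 value of at least 3. Those that ran against it were *Rasl12* (-0.88), *Alas1* (-0.86), *Ptp4a3* (-0.85), *Dock6* (-0.84) and *Tef* (-0.83). The 12 points share 3 mice in pairs, and gene and index are measured in the same library, so that r is a description. *Alg8*, an enzyme gene of protein glycosylation, was at 27.4 to 34.0 CPM in fast and 14.3 to 25.4 in slow tumors. *Anapc15* belongs to the anaphase-promoting complex and *Yes1* encodes a Src family kinase, at 83.5 to 121 against 55.2 to 80.7 CPM. *Tef*, a transcription factor gene with daily rhythm in many tissues, was at 75.5 to 110 CPM in fast and 109 to 250.03 in slow tumors, overlapping by KP-PPARαΔ13 1 and KPG1-PPARαΔ13 3. With the labelled group means subtracted, *Alg8* had an r of 0.94 and *Tef* of -0.91.

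The chromosome of a gene was related to its difference. Over 10383 genes with a mean log2 value of at least 3, the median difference between fast and slow tumors was 0.30 on chromosome 12 (373 genes, 84.99% higher in fast tumors), 0.22 on chromosome 5 (690 genes, 82.3%), 0.20 on chromosome 18 (259 genes, 78.8%) and -0.34 on chromosome 15 (428 genes, 7.24%). The other chromosomes lay between -0.13 and 0.14. Leaving out the 2 slowest tumors gave medians of 0.21, 0.11, 0.17 and -0.17 for these 4 chromosomes. Others then reached as far, with -0.24 on chromosome 13, 0.22 on chromosome 17, 0.21 on chromosome 16 and 0.17 on chromosome 6. In that setting all slow tumors were Glut1Fl/Fl. The shifts were uneven between tumors. Against the mean of the 12 tumors, the median gene of chromosome 12 was at 0.48 in KP-PPARαΔ13 2 and at -0.42 in KP-PPARαΔ13 3, and that of chromosome 18 was at 0.73 in KP-PPARαΔ13 1. On chromosome 15 the fast tumors KP-PPARαΔ13 2 and KPG1-PPARαΔ13 2 were at -0.43 and -0.30, and the slow tumors KPG1 2 and KP 1 at 0.38 and 0.31. On every chromosome at least 1 fast tumor overlapped the slow ones. Chromosome 19, with a median difference of -0.02, had both extremes among slow tumors, 0.65 in KPG1 2 and -0.70 in KP 1. *Kntc1*, *Yes1*, *Ncapg* and *Cdc7* lie on chromosome 5, and *Ly6c2*, *Ptp4a3* and *Tef* on chromosome 15. The positions of the other named genes are not listed here. Of the 29 separating genes on the higher side at this level, chromosome 5 held 6 and chromosomes 12 and 18 held 1 and 0. Chromosome 11, with a median difference of -0.02, held 4. DNA copy number was not measured here, and its part in these shifts was not tested.

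**Figure D5:**
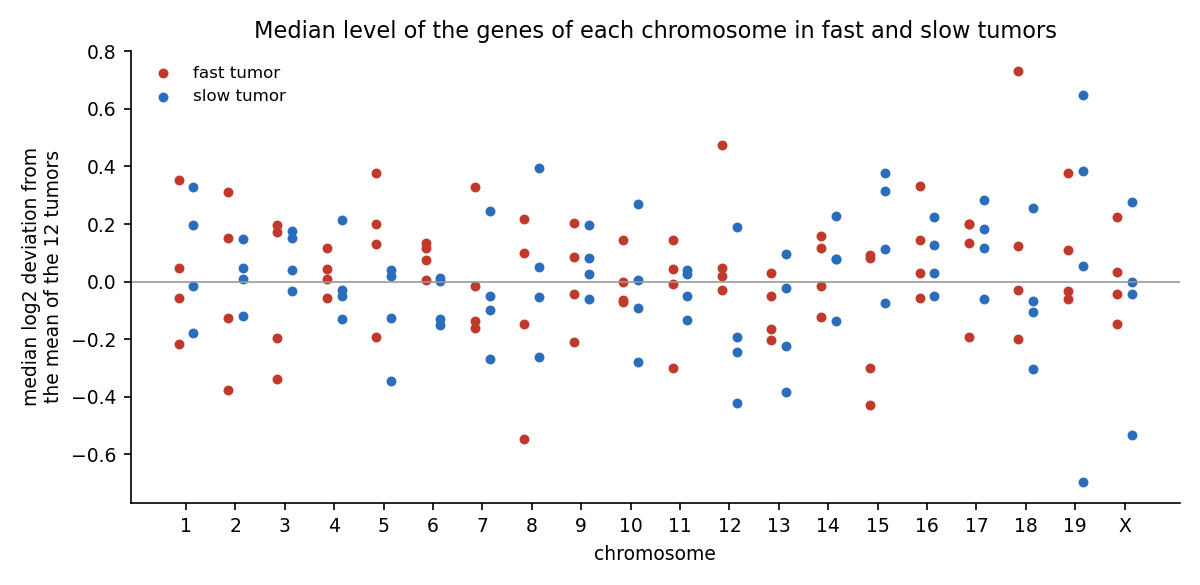
Median log2 deviation from the mean of the 12 tumors over the genes of each chromosome, for the 4 fast (red) and 4 slow (blue) tumors. Chromosome 15 is at -0.43 and -0.30 in 2 fast tumors and chromosome 18 at 0.73 in 1 fast tumor, and the classes overlap on every chromosome.

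The labels allow tests of genotype and diet that do not use the ranking. In edgeR's quasi-likelihood test with Benjamini-Hochberg adjustment over 16527 genes, none of 199 cell division genes, index genes included, was called between Glut1Fl/Fl and wild-type tumors, between doxycycline and regular diet, or in the interaction of both. The smallest adjusted p among them was 0.976 for genotype, 0.405 for diet and 0.351 for the interaction. At an unadjusted p under 0.05 there were 3, 6 and 4 of these genes, and DESeq2 and limma voom called 0 in each comparison as well. The median log2 fold change of the 199 genes was -0.06 with Glut1Fl/Fl and 0.07 with doxycycline, and single tumors set both. Without KP-PPARαΔ13 3 they were -0.17 (35 of 199 genes higher) and 0.20 (168 higher), and without KP-PPARαΔ13 2 they turned to 0.03 and -0.03. The background was 8 genes (0.0484%) for genotype, 3 (0.0182%) for diet and 0 (0.0%) for the interaction, where DESeq2 called 286 and 1952 genes had an unadjusted p under 0.05. *Mki67* had a log2 fold change of -0.19 with doxycycline (edgeR adjusted p = 0.88) and *Birc5* of 0.28 (adjusted p = 0.83).

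Mitosis genes differed between fast and slow tumors of the same labelled group, by less than the classes in 2 groups and by more in KP-PPARαΔ13. The index placed these tumors in their classes, so a difference of division genes in its direction follows from that choice and is no test. The KP group held no fast tumor and gives no contrast. The median mitosis gene was 0.55 higher in KPG1 1 than in KPG1 2, 0.49 higher in KPG1-PPARαΔ13 2 than in KPG1-PPARαΔ13 3, and 1.36 higher in the mean of KP-PPARαΔ13 1 and 2 than in KP-PPARαΔ13 3, while the median of all genes differed by -0.0015, -0.0080 and 0.0018. Markers of other cells changed sign over these 3 contrasts, with an endothelial median of 1.53, -0.57 and -2.12 and a fibroblast median of 1.51, -0.36 and 0.22. Alveolar type 2 and antigen presentation medians were below 0 in all 3. DNA replication genes differed by 0.28, 0.29 and 0.98 and DNA repair genes by 0.61, 0.60 and 1.16, all in the direction of the index.

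Of the genes that the study engineered, *Slc2a1* overlapped between the classes. *Slc2a1* was at 30.2, 53.2, 115 and 153 CPM in the fast tumors and at 54.6, 64.0, 41.7 and 108 in the slow ones. It was at 23.7 to 64.0 CPM in all 6 Glut1Fl/Fl tumors and at 35.3 to 153 in the 6 others, so the groups overlap (edgeR adjusted p = 0.98 for genotype), and the counts cover the whole gene, not the deleted part alone. *Ppara*, whose counts may hold the transgene, was at 246 CPM in KP-PPARαΔ13 3, the slowest tumor. It was at 64.6 in KP-PPARαΔ13 2 and at 2.71 in KP-PPARαΔ13 1, so that tumors labelled as induced differed widely within this group. Its levels in the other groups are not given here.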

How the data were processed

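Single-end reads from poly(A) RNA were, per the labels and the study's methods, trimmed with Cutadapt and aligned to mm10 with HISAT2, and the submitters' processing notes also list bcl2fastq 2.17, cutadapt 1.4.2, featureCounts 1.4.4 and edgeR. The authors deposited raw counts per gene. They also deposited log2 values, which equal log2 CPM of the count plus 0.5 with TMM-scaled library sizes (factors 0.893 to 1.09). All 37 mitochondrial genes are listed at 0.

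Of 39017 genes, 13548 had no count and 16527 passed filterByExpr by labelled group. Fast and slow tumors were compared on the deposited log2 values. Labelled comparisons used edgeR 4.0.16 (glmQLFit, glmQLFTest, TMM) on the counts in R 4.3.3, with DESeq2 1.42.0 and limma 3.58.1 voom as alternatives and all 12 tumors in one fit. Tumors of one mouse were treated as separate samples, and p-values measure the spread between tumors. Scripts were tested on simulated data.

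The members and the 22 lists (538 entries) were chosen with earlier results of these data known. Named genes are the 5 index genes; up to 4 per list and direction with the largest difference among separating genes, or else 2 with the largest absolute difference; up to 12 per direction outside the lists among separating genes with a mean log2 value of at least 3; the 5 per direction most like the index; and *Slc2a1* and *Ppara*. A few genes that this rule names are not reported here. Others, *Ccnd1* and *Pecam1* among them, were chosen after their values were seen. Positions are from GENCODE M21. Columns that match no sample numbered 0.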

Additional observations from a re-analysis of the deposited data

Results flagged for a closer look

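In 3 list means, 1 tumor of a class stood far from the other 3 (the gap to the nearest, as a share of the range of the class, was above the limit of Dixon's criterion for 4 values). The limit is used here as a description, since the classes come from the ranking, and over 44 class and list pairs, the index genes among them, the criterion would mark about 1 in 20 of groups drawn without such a choice. In the slow class, KP-PPARαΔ13 3 had a mean log2 value of 4.89 over condensin and chromatin genes, below 5.15 to 5.20 in the other slow tumors. Also in the slow class, KPG1 2 had 1.21 over fibroblast genes, below 2.59 to 2.79. In the fast class, KPG1 1 had 1.23 over leukocyte genes, below 1.94 to 2.00.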

How the results depend on the processing

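Genes separating the classes numbered 93 higher and 43 lower, of which 30 and 0 were in the cell division lists. Counts moved by over 1.5 times under these alternatives, and the cause was not tested unless the rule itself is wider or narrower. Leaving out 1 index gene gave 68 lower and 19 of the cell division lists without *Mki67*, 92 lower without *Top2a*, 151 and 92 without *Ccnb1* and 19 of the lists without *Birc5*, and the median of the index genes gave 151 and 92. Taking 3 tumors against 3 gave 334, 294 and 53 of the lists, 5 against 5 gave 34, 21 and 13, and tumors of the same mouse averaged gave 60, 70 and 10. With labelled group means subtracted there were 159 and 134, and with a prior count of 2 there were 94 lower under TMM scaling, where KPG1 3 became a slow tumor, and 39 under upper-quartile scaling. A difference of 0.5 gave 234, 88 and 83, no overlap alone 314, 134 and 83, no filter on low counts 197 and 66, and a mean log2 value of at least 3 gave 29, 8 and 19. Leaving out 1 tumor gave 96 to 240 higher, 61 to 213 lower and 7 to 49 of the lists.

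Chosen after seeing the data, thinning the counts with a new ranking gave 96 lower, and leaving out the 2 slowest tumors gave 2 genes of the lists and medians of 0.55 for mitosis and 0.29 for S phase genes, the latter also 0.32 with mice averaged. The medians of the 4 cell division lists stayed above 0 in all 24 alternatives, as did those of Myc, nucleotide, glycolysis (0.04 to 0.44) and mesothelial and erythroid genes (0.09 to 1.32), and those of alveolar type 2 (-0.81 to -0.04), airway and endothelial genes (-1.01 to -0.17) stayed below 0. No cell division gene was called for genotype or diet under any of 18 alternatives. All-gene calls were 39 (genotype) and 286 (diet) by DESeq2, 5 for diet without the filter, and with 1 tumor left out 6 to 11 for genotype and 2 to 13 for diet, the highest without KP-PPARαΔ13 3 (13) and KPG1-PPARαΔ13 1 (6). With the replicate block genotype had 5 calls and diet 4. Replicate numbers do not pair the tumors (r of -0.19 to 0.13, over 0.1 in 2 of 18 pairs).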

Other observations

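Genes of the daily clock, chosen after their values were seen, leaned one way between the classes. Of 13 tested clock genes, 10 were lower in the mean of the fast tumors, the median difference was -0.38, and *Dbp*, a clock-driven transcription factor gene, was the only one without overlap. *Dbp* was at 9.22 to 12.8 CPM in fast and 16.2 to 36.1 in slow tumors, a difference of -0.94. The repressors *Per1*, *Per2* and *Per3* differed by -0.65, -0.50 and -0.49 and *Nr1d1* by -0.50, while *Arntl*, *Clock* and *Cry1* differed by 0.21, 0.13 and 0.26, all overlapping. The time of day of collection was not analysed here.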
